A study of Mus musculus with 16 samples.

Results

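The genes of the NF-kB transcription factors and of their inhibitors were examined in sorted B1b cells and whole aortas of mice with and without a B cell-specific deficiency of CD40. The group holds 10 genes chosen by name, with earlier results of these data known, of 24562 gene entries in the count table. Of these, 5 encode the DNA-binding subunits (Nfkb1, Nfkb2, Rel, Rela and Relb) and 5 encode inhibitors (Nfkbia, Nfkbib, Nfkbid, Nfkbie and Tnfaip3). All 10 passed the filter on low counts in both tissues. They are spread over 7 chromosomes, with Nfkbib, Nfkbid and Relb on chromosome 7, Nfkb2 and Rela on chromosome 19, and the other 5 on a chromosome each.

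As background, NF-kB subunits bind DNA as dimers. In resting cells the dimers are held in the cytoplasm by proteins of the IkB family, and a signal that activates the IkB kinase leads to breakdown of the IkB and entry of the dimer into the nucleus. Several inhibitor genes are themselves switched on by NF-kB, which makes them part of a feedback loop. CD40, a receptor of the TNF receptor family on B cells and macrophages, signals through TRAF adaptors to both the canonical arm, which releases dimers of RelA or c-Rel with p50, and the noncanonical arm, which processes the Nfkb2 product to p52 and releases RelB. B1b cells are a subset of innate-like B cells found mainly in the body cavities.

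RNA sequencing was done on 16 libraries, all from the ApoE-/- strain, which is prone to atherosclerosis. B1b cells came from peritoneal lavage, sorted for surface markers among them low CD5, low B220 and high IgM, with 3 libraries of genotype wt (wild type below) and 3 of genotype cre. Whole aortas gave 5 libraries of each genotype. The series text describes the cre animals as lacking CD40 in B cells, while the labels name neither the Cre driver, the altered stretch of Cd40, the age nor the diet. Nothing in the labels says that each library came from a separate animal, so the p-values measure the spread between these libraries.

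After 1 transcript was kept per gene, totals ran from 6815829 to 9911226 counts in B1b libraries and from 1645926 to 7300894 in aortas. A member had 196 to 4077 counts in a B1b library and 8 to 1413 in an aorta. The 9 B cell markers summed to 8238 to 8839 CPM (counts scaled to the library total) in B1b libraries and to 164 to 262 CPM in aortas, where 7 smooth muscle markers summed to 8815 to 22959 CPM. Cd40 itself stood at 34.3 to 39.1 CPM in wild-type and 29.5 to 38.4 CPM in cre B1b libraries, and the groups overlapped (log2 fold change -0.16, edgeR quasi-likelihood adjusted p = 0.682). In aortas it stood at 4.75 to 11.9 and 1.8 to 8.48 CPM (edgeR adjusted p = 0.711). A count over a whole transcript need not drop when only a stretch of the gene is removed, so this does not check the genotype labels. Why the Cd40 groups overlapped was not tested.

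Nfkbid and Nfkbie are the members with the largest genotype differences in B1b cells, and several IkB genes are themselves NF-kB targets, so the DNA before their starts is shown with that of Nfkbia, the best-known feedback gene of the pathway. Sequences are from RefSeq on GRCm38.p6, 5′ to 3′ on the gene's strand, 250 bases before the start, and capitals mark matches to the kB consensus. The motif searched has 10 bases, 3 G, a purine, any 2 bases, 2 pyrimidines and 2 C, and was sought on both strands with overlaps allowed, from 250 bases before to 50 after each start. The third sequence belongs to the start of the Nfkbid transcript that was counted.
Nfkbid, chr7:30422156-30422405 (+): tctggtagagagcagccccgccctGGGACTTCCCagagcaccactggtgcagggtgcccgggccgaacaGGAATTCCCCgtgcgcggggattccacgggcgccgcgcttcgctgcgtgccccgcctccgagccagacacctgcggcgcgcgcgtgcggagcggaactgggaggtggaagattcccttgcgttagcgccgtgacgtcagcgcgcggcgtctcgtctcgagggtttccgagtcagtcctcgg
Nfkbie, chr17:45555450-45555699 (+): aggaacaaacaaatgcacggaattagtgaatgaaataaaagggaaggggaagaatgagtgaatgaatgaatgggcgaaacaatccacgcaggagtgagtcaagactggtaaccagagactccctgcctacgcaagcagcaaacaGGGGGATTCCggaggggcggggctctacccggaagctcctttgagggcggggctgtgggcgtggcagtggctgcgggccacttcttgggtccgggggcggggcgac
Nfkbid counted transcript, chr7:30423025-30423274 (+): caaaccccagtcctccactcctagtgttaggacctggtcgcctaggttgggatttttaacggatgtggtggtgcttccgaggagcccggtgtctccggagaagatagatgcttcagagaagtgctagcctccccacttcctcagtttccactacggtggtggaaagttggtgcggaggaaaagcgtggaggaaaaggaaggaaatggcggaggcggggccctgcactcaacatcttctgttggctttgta
Nfkbia, chr12:55492648-55492897 (-): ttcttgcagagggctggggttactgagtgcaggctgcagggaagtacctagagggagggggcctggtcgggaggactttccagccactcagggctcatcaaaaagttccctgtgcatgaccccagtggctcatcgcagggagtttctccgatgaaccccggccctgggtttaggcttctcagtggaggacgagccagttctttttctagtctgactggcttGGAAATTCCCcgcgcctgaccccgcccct

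The first Nfkbid window shown held 2 matches, GGGACTTCCC with its last base 217 bases from the start and GGAATTCCCC at 172 bases. A further Nfkbid window upstream of it, chr7:30421481-30421730, held 0 matches and is not shown. The window at the counted Nfkbid transcript held 0 matches, which says only that these letters are not in it. Nfkbie held GGGGGATTCC at 97 bases and Nfkbia held GGAAATTCCC at 20 bases. Of the 10 genes, 8 had a window in the table (13 windows), and 6 genes had at least 1 match, namely Nfkbid, Nfkbie, Nfkbia, Tnfaip3, Rel and Nfkb2. Nfkbib and Rela had none. Of the 13 windows 61.5% held a match, against 8.46% of 32851 windows of the same length in the table. By gene the share in the table was 9.55% of 27025 genes. Windows of the same gene can overlap and share a match, as for Nfkb2, so the windows are not independent. A match describes the letters and is not a measured binding site.

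The first comparison set the members' levels in wild-type B1b cells against those in wild-type aortas. Of the 10 genes, 8 were higher in B1b cells and 0 were lower past the threshold (edgeR adjusted p under 0.05). The background was wide, since 35.4% of 14339 genes tested were higher and 40.4% were lower. The 8 genes also had every B1b library above every aorta, as had 34.8% of the genes tested. The median log2 difference was 1.22 over the members and -0.09 over all genes tested. Cell type, handling and tissue content cannot be told apart in this comparison, and in whole aortas fewer cells of a type and less RNA per cell cannot be told apart either.

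Rel, which encodes c-Rel, a subunit prominent in lymphocytes, was apart by the widest margin. It stood at 80.2, 79 and 85 CPM in the wild-type B1b libraries and at 6.65, 6.39, 3.15, 9.35 and 9.5 CPM in the wild-type aortas. Every B1b library thus lay far above every aorta, an 11.9-fold difference (95% interval 8.18 to 17.4, edgeR adjusted p = 4.76e-08). Nfkbid encodes IkBNS, an atypical nuclear IkB protein needed for B1 cell development in mice. It stood at 62.1, 53 and 55.8 CPM against 7.36, 4.18, 9.45, 7.51 and 4.22 CPM, an 8.26-fold difference without overlap (95% interval 5.9 to 11.6, edgeR adjusted p = 7.31e-08).

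Among the other subunits, Nfkb1, the gene of p105 and p50, was 4.14-fold higher in B1b cells, Nfkb2, the gene of p100 and p52, was 2.28-fold higher, and Rela, the gene of p65, was 1.61-fold higher. Relb, the partner of p52 in the noncanonical arm, stood at 32.4 to 47 CPM in B1b cells and 22.2 to 37 CPM in aortas, which overlapped (log2 difference 0.37, edgeR adjusted p = 0.0824). Among the inhibitors, Nfkbie (IkB-epsilon) was 4.35-fold, Nfkbib (IkB-beta) 2.39-fold and Tnfaip3 (A20, an enzyme that edits ubiquitin chains on signalling adaptors) 1.61-fold higher in B1b cells. Nfkbia, the gene of IkB-alpha, the inhibitor broken down most rapidly on stimulation, was at 146 to 174 CPM in B1b cells and 139 to 223 CPM in aortas, with a log2 difference of -0.22 (95% interval -0.57 to 0.12, edgeR adjusted p = 0.222). The same 8 genes passed when cre B1b cells were compared with cre aortas, where Rel differed by 3.98 and Nfkbid by 2.71 on the log2 scale.

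**Figure D1:**
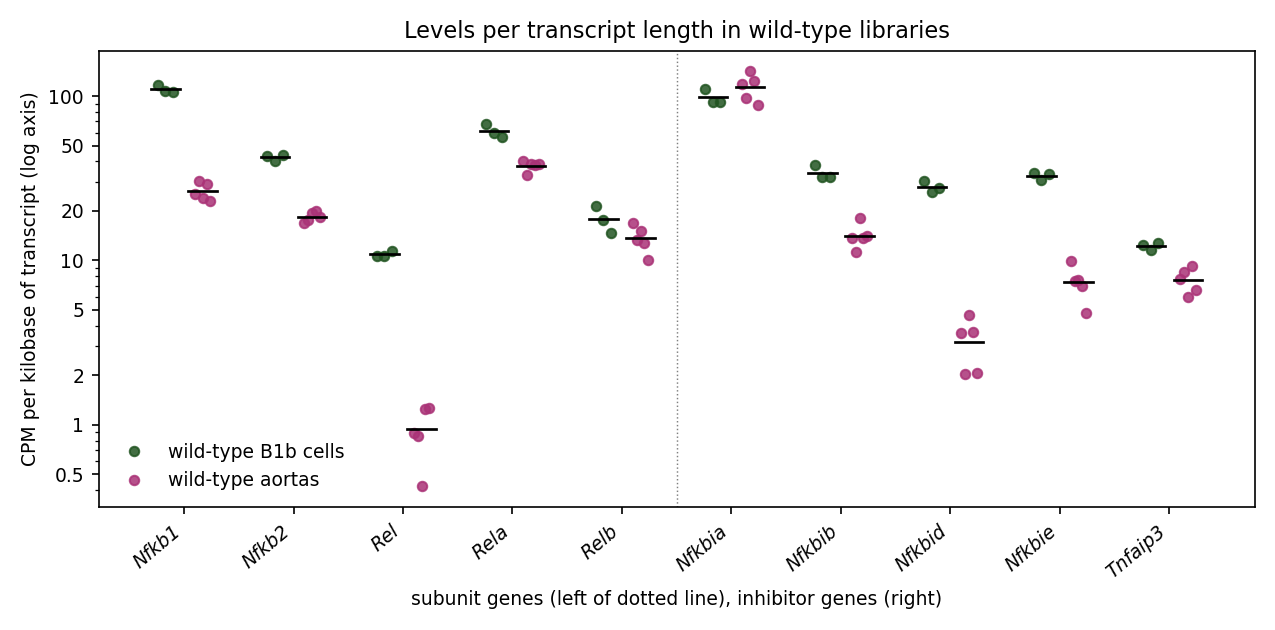
Level of each gene in CPM per kilobase of transcript on a log axis, with 1 point per wild-type library (3 of B1b cells, 5 of aorta) and a bar at the group mean. Rel and Nfkbid lie farthest apart between the tissues, while the points of Nfkbia and Relb overlap.

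Divided by transcript length, which allows genes to be compared with each other, the levels had a different order in each tissue. In wild-type B1b cells Nfkb1 (110 CPM per kilobase, SD 4.98, n = 3) and Nfkbia (98.4, SD 10.3) were at the top with overlapping ranges. Rela followed at 61.1, Nfkb2 at 42.4, and Nfkbib and Nfkbie at 34 and 32.8 CPM per kilobase, this last pair again overlapping. Nfkbid at 27.9, Relb at 17.8, Tnfaip3 at 12.3 and Rel at 10.9 CPM per kilobase closed the order, each apart from its neighbour. Rel was thus the gene most unequal between the tissues and the least abundant subunit in both. The level of Nfkbib was divided by 1243 bases, the length of the transcript used. Its other transcript has 2061 bases and held 94.3% of that count, and dividing by that length would lower the level of Nfkbib. The place of Nfkbib in the order of each tissue therefore depends on this choice.

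In wild-type aortas Nfkbia was alone at the top with 114 CPM per kilobase (SD 21.1, n = 5). Rela at 37.8, Nfkb1 at 26.4 and Nfkb2 at 18.5 CPM per kilobase came next. The ranges of Nfkb2, Nfkbib (14.1) and Relb (13.6) overlapped from neighbour to neighbour, as did those of Tnfaip3 (7.59) and Nfkbie (7.37). Nfkbid at 3.21 and Rel at 0.938 CPM per kilobase were the lowest.

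The make-up of the set therefore differed between the tissues. Nfkb1 made up 45.5% of the summed subunit level per kilobase in wild-type B1b cells and 27.2% in wild-type aortas, and Rela 25.2% and 38.9%. Rel went from 4.52% in B1b cells to 0.97% in aortas and Relb from 7.33% to 13.9%, whereas Nfkb2 was close, at 17.5% and 19%. Of the summed inhibitor level, Nfkbia held 47.8% in B1b cells and 77.7% in aortas, and Nfkbid held 13.6% and 2.14%. These shares describe the libraries and were not tested, and the inhibitor shares also depend on the length taken for Nfkbib.

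**Figure D2:**
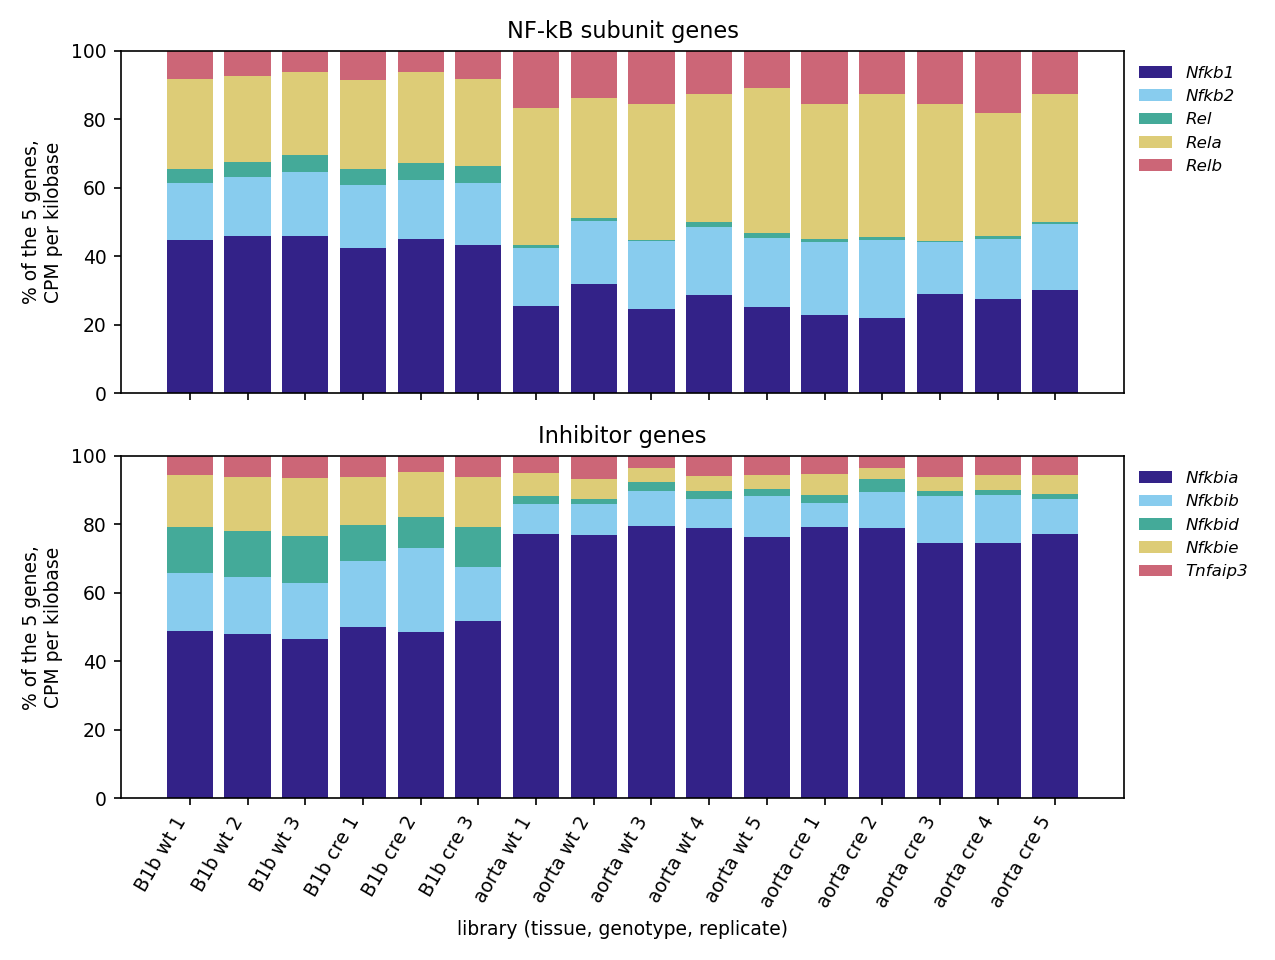
Share of each gene in the summed level per kilobase of the 5 subunit genes (upper panel) and of the 5 inhibitor genes (lower panel), in percent, with 1 bar per library. In the 3 wild-type B1b libraries Nfkbid held 13.5% to 13.8% of the inhibitor sum, in the 3 cre libraries 9.21% to 11.8%.

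The second comparison asked whether the members differed between cre and wild-type B1b cells. None of the 10 passed the threshold, against 0.716% of 11732 genes tested (84 genes), and DESeq2 and limma-voom likewise passed 0 members. At an unadjusted p under 0.05 there were 3 members, Nfkbid, Nfkbie and Nfkb1, all lower in cre, where 13.3% of genes reached that level and 5.68% were lower. The same 3 had every cre library below every wild-type library, where the background is 8.98% of genes. The log2 fold change was below 0 for 9 of 10 members (50.9% of all genes), and its median was -0.07 over the members, -0.07 over the subunits, -0.20 over the inhibitors and 0.00 over all genes.

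**Figure D3:**
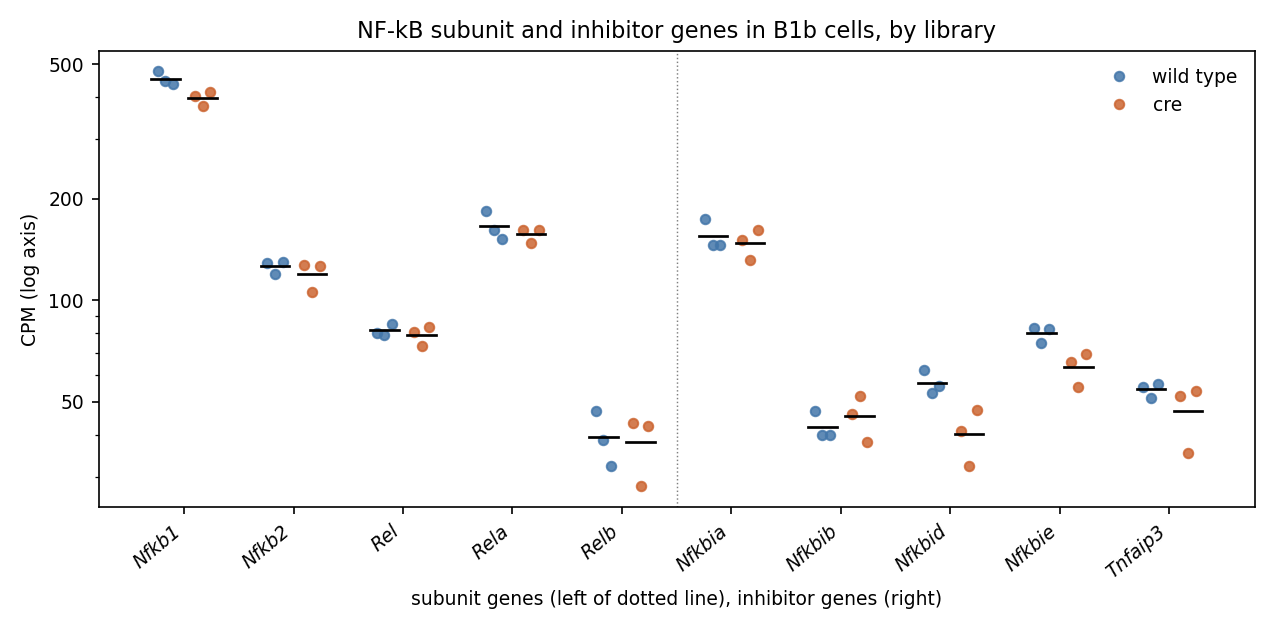
CPM of the 10 genes in B1b cells on a log axis, with 1 point per library (3 wild type, 3 cre) and a bar at the group mean. The groups are apart for Nfkb1, Nfkbid and Nfkbie and overlap for the other 7 genes.

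Nfkbid had the largest genotype difference of the 10 in B1b cells. Its wild-type libraries stood at 62.1, 53 and 55.8 CPM and its cre libraries at 41.1, 32.4 and 47.4 CPM. Each cre value lay below each wild-type value, and replicate 2 was the lowest of the cre libraries. The cre mean was 40.3 CPM (SD 7.56, n = 3) against 57 CPM (SD 4.69, n = 3), a log2 fold change of -0.49 (SE 0.13, 95% interval -0.76 to -0.22), that is a value 28.7% lower. With an unadjusted p of 0.00112, the edgeR adjusted p was 0.0834, which missed the threshold. Nfkbid passed without the filter on low counts (log2 fold change -0.47, edgeR adjusted p = 0.0128), where 327 genes passed in place of 84. It also passed without cre replicate 3 (-0.61, edgeR adjusted p = 0.0301). Leaving out each library in turn gave edgeR adjusted p-values from 0.0301 to 0.356. Of 8 other settings of the fit it passed in 1, the one without the filter. The adjusted p was 0.226 with summed transcripts (edgeR) and 0.114 with limma-voom. With all 16 libraries in 1 fit the unadjusted edgeR p was 0.176.

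Nfkbie encodes IkB-epsilon, which is known to restrain c-Rel and RelA dimers in B cells. It stood at 82.6, 74.7 and 82.1 CPM in wild type and at 65.7, 55.3 and 69.5 CPM in cre. The groups did not overlap, and replicate 2 was again the lowest cre library. The log2 fold change was -0.32 (SE 0.10, 95% interval -0.53 to -0.11), and the edgeR adjusted p of 0.151 missed the threshold.

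Nfkb1 was the only subunit gene whose groups were apart. It stood at 476, 445 and 437 CPM in wild type and at 403, 376 and 414 CPM in cre. The log2 fold change was -0.18 (SE 0.07, 95% interval -0.34 to -0.03), with an edgeR adjusted p of 0.292, so the difference was small and missed the threshold.

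The other 4 subunit genes overlapped between the genotypes. Rela stood at 184, 161 and 152 CPM in wild type and 162, 148 and 161 in cre. Rel stood at 80.2, 79 and 85 CPM against 80.7, 73.1 and 83.5. Nfkb2 stood at 129, 120 and 130 CPM against 127, 106 and 126. Relb, at 47, 38.7 and 32.4 CPM against 43.4, 28.1 and 42.5, varied most within a group. The log2 fold changes of these 4 lay between -0.07 and -0.03 with edgeR adjusted p-values from 0.791 to 0.95. For Rel the interval was -0.23 to 0.16, and for Relb it was -0.39 to 0.30.

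The remaining inhibitors also overlapped. Nfkbia stood at 174, 146 and 146 CPM in wild type and at 151, 132 and 161 in cre, with a log2 fold change of -0.06 (95% interval -0.26 to 0.14, edgeR adjusted p = 0.854). Tnfaip3 stood at 55.4, 51.4 and 56.7 CPM against 52.1, 35.4 and 53.8, where cre replicate 2 was low and the other 2 cre libraries were within the wild-type range, and its log2 fold change was -0.20 (95% interval -0.47 to 0.07, edgeR adjusted p = 0.538). Nfkbib, the 1 member with a value above 0, stood at 47, 39.8 and 39.9 CPM against 46, 52 and 38.1, with a log2 fold change of 0.11 (95% interval -0.17 to 0.39, edgeR adjusted p = 0.802). Nfkbib was highest in cre replicate 2, the library where the other 9 members were lowest.

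Some summed lists, of markers of other cells and of immediate early and dissociation stress genes, also differed between the B1b groups. A sum does not tell which cells, or which handling or activation, its counts came from. The 14 macrophage and monocyte markers summed to 272, 363 and 420 CPM in wild type and to 490, 499 and 494 CPM in cre, and Gata6 and Fcgr1 were under 1 CPM in every cre library. The 25 immediate early and dissociation stress genes summed to 2331, 2308 and 2165 CPM in wild type and to 1934, 1876 and 1970 CPM in cre. Gata6 was under 1 CPM in every wild-type library too. The 7 endothelial markers summed to 278, 272 and 302 CPM in wild type and to 264, 240 and 264 CPM in cre. Of these markers 4 were under 1 CPM in every wild-type library and 5 in every cre library. The macrophage, immediate early and endothelial sums were apart between the groups, while the other marker sums overlapped. Of all single genes tested in B1b cells, 17.9% had groups apart in either direction. Why the sums differed, and their part in the differences of the members, was not tested. The 9 B cell markers summed to 8283 to 8839 CPM in wild type and 8238 to 8480 CPM in cre. Of 9 T and natural killer cell markers, 6 were under 1 CPM in every wild-type library and 6 in every cre library. The sets were not the same, as Cd3e was only in the wild-type set and Ncr1 only in the cre set.

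Around the 10 members, the pathway was read from lists of further genes, in B1b cells first. The lists were chosen with earlier results of these data known. Their counts beside the share of all genes are therefore a description and not a test of the lists. Of 14 other IkB-family and inhibitory partner genes 0 passed, and their median log2 fold change was 0.03. The smallest p among them was that of Nkiras1, a small GTPase-like protein that binds IkB-beta, at 26.4 CPM (SD 2.43) in wild type and 33.6 CPM (SD 2.34) in cre (log2 fold change 0.36, edgeR adjusted p = 0.27). Cyld, a deubiquitinase that limits NF-kB signalling, was at 0.14 and Tnip2, an A20-binding partner, at -0.22 on the log2 scale.

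Of 26 kinases and adaptors upstream of NF-kB, 1 passed and was lower, as did 0.222% of all genes tested. The list member that passed was Traf5, an adaptor of CD40 and related receptors. It fell from 75.6 CPM (SD 10.5, n = 3) to 54 CPM (SD 2.7, n = 3), which is -0.48 on the log2 scale (edgeR adjusted p = 0.0452). With each library left out in turn the call held in 1 of 6 fits, the one without wild-type replicate 2, and the adjusted p ran from 0.0236 to 0.279 in these fits. In 8 other settings of the fit the call held in 5. The median of the list was 0.03. Malt1, a paracaspase that relays the B cell receptor signal, was at 0.21 (edgeR adjusted p = 0.311) and Ikbkb, the catalytic IKK-beta, at -0.14 (edgeR adjusted p = 0.44).

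Of 36 textbook NF-kB target genes 25 could be tested in B1b cells, and 2 passed, both lower, with a list median of -0.16. The share of all genes tested that passed and were lower was 0.222%. Cd83, an activation marker of B cells, fell by 0.65 on the log2 scale (edgeR adjusted p = 0.0203), a call that held in 3 of 6 fits with a library left out. Gadd45b, a stress-response gene that is also on the immediate early list, fell by 0.77 (edgeR adjusted p = 0.0434), a call that held in 0 of 6. In 8 other settings of the fit the call held in 6 for Cd83 and in 5 for Gadd45b. Junb, Zfp36 and Ier3 are on both lists too, so the lists are not separate sets. At an unadjusted p under 0.05 there were 7 of the 25 target genes, 6 of them lower, where the background is 13.3% of all genes tested in either direction and 5.68% lower. Among the 6 was the follicle-homing receptor gene Cxcr5 at -0.24 (edgeR adjusted p = 0.124).

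Of the immediate early and dissociation stress genes 22 could be tested, 5 passed, all lower, and the list median was -0.33. Over all genes tested 0.222% passed and were lower. Fosb, an AP-1 subunit, fell by 1.84 on the log2 scale (edgeR adjusted p = 0.000553) and kept its call in 6 of 6 fits with a library left out. Cd69, an early activation marker, fell by 0.75 (edgeR adjusted p = 0.00846, called in 4 of 6). Ppp1r15a, a phosphatase subunit of the stress response, fell by 0.69 (edgeR adjusted p = 0.0346, called in 0 of 6), and Egr3, a zinc-finger factor, by 0.89 (edgeR adjusted p = 0.0464, called in 1 of 6). In 8 other settings of the fit the call held in 7 for Fosb, 6 for Cd69, 6 for Ppp1r15a and 4 for Egr3.

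The third comparison was the same contrast in whole aortas, where B cell transcripts were scarce. None of the 10 members passed, against 0.015% of 13364 genes (2 genes), and DESeq2 and limma-voom also passed 0 members. None had an unadjusted p under 0.05 (12.6% of genes) and none had groups apart (2.9% of genes). The log2 fold change was below 0 for 6 of the 10 (49.8% of genes), and the median was -0.01 over the members and 0.00 over all genes.

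**Figure D4:**
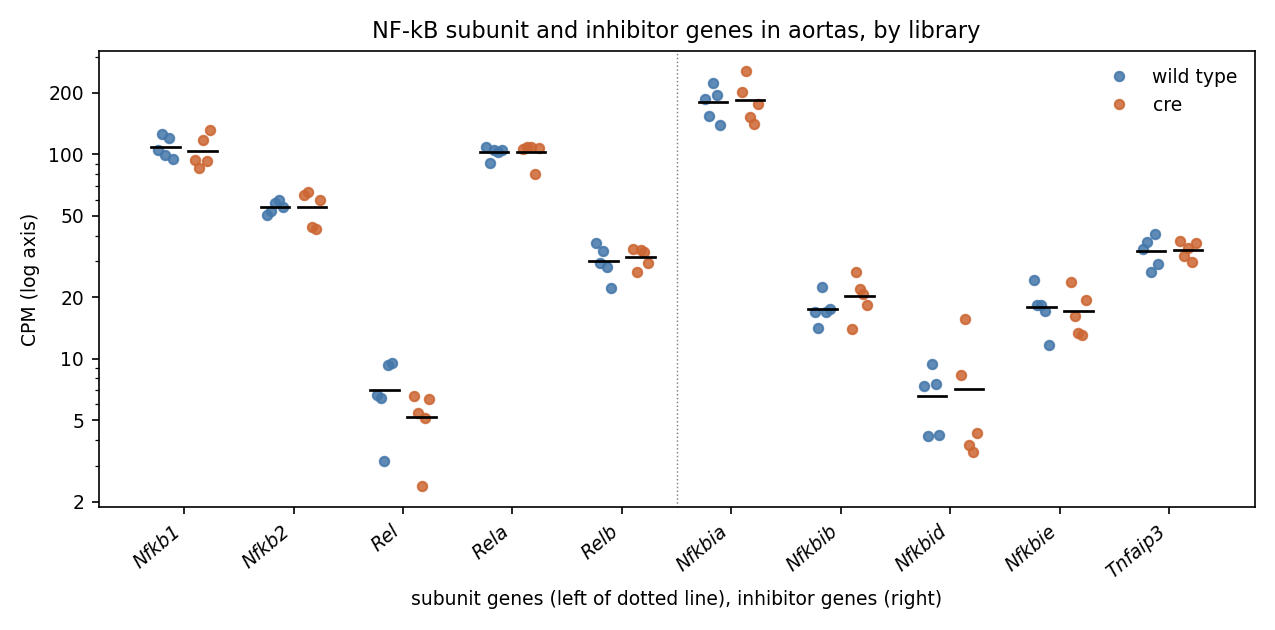
CPM of the 10 genes in aortas on a log axis, with 1 point per library (5 wild type, 5 cre) and a bar at the group mean. The groups overlap for all 10 genes, and Nfkbid has 1 cre library at 15.6 CPM above all others.

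Nfkbid stood at 7.36, 4.18, 9.45, 7.51 and 4.22 CPM in wild-type aortas and at 8.31, 15.6, 3.79, 3.5 and 4.32 CPM in cre aortas. The highest value came from cre replicate 2, the library of lowest total, and the groups overlapped throughout. The log2 fold change was -0.01 (95% interval -0.91 to 0.89, edgeR adjusted p = 0.992). Without cre replicate 2 it was -0.45 (edgeR adjusted p = 0.604), so its value depended on that library. The method mattered as well. With all aortas kept, the value was -0.47 with limma-voom (adjusted p = 0.586) and -0.37 with limma-voom and quality weights (adjusted p = 0.632). With DESeq2 it was 0.02.

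Nfkbia stood at 186, 154, 223, 196 and 139 CPM in wild-type aortas and at 201, 254, 152, 141 and 177 CPM in cre aortas, with cre replicate 2 again the highest. Its log2 fold change was 0.04 (95% interval -0.35 to 0.43, edgeR adjusted p = 0.946). Rel stood at 6.65, 6.39, 3.15, 9.35 and 9.5 CPM in wild type and at 6.6, 5.41, 2.37, 5.12 and 6.32 CPM in cre. It had the largest difference from 0 of the 10 in aortas, -0.42, with an interval from -1.20 to 0.37 (edgeR adjusted p = 0.664).

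For the other 7 members the log2 fold change in aortas lay between -0.08 (Nfkbie) and 0.19 (Nfkbib). Nfkb1 stood at 94.5 to 125 CPM in wild type (median 105) and 86 to 131 CPM in cre (median 93.3), and Rela at 90.5 to 109 CPM and 80.5 to 109 CPM. Nfkb2 stood at 50.6 to 59.6 CPM against 43.2 to 65, Relb at 22.2 to 37 against 26.5 to 34.2, and Tnfaip3 at 26.5 to 40.6 against 29.8 to 37.6. Nfkbie stood at 11.6 to 24.2 CPM against 13.1 to 23.7 and Nfkbib at 14.1 to 22.5 against 13.9 to 26.5. None of these ranges were apart.

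The aortas differed among themselves in tissue content. Heart muscle markers summed to 472 to 1998 CPM in wild type and 575 to 5966 CPM in cre, skeletal muscle markers to 21.4 to 180 and 78.2 to 879 CPM, nerve markers to 72.4 to 171 and 81.5 to 1105 CPM, and fibroblast markers to 14884 to 20146 and 10162 to 17211 CPM. Macrophage markers summed to 2697 to 6261 CPM in wild type and 3989 to 7014 CPM in cre, and B cell markers to 164 to 224 and 171 to 262 CPM. The part of these sums in the members' values was not tested. Of the further pathway lists 0 genes passed in aortas, with medians of -0.09 for the inhibitory partners, -0.18 for the kinases and adaptors (21 of 26 below 0), -0.01 for the targets and 0.10 for the immediate early genes.

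**Figure D5:**
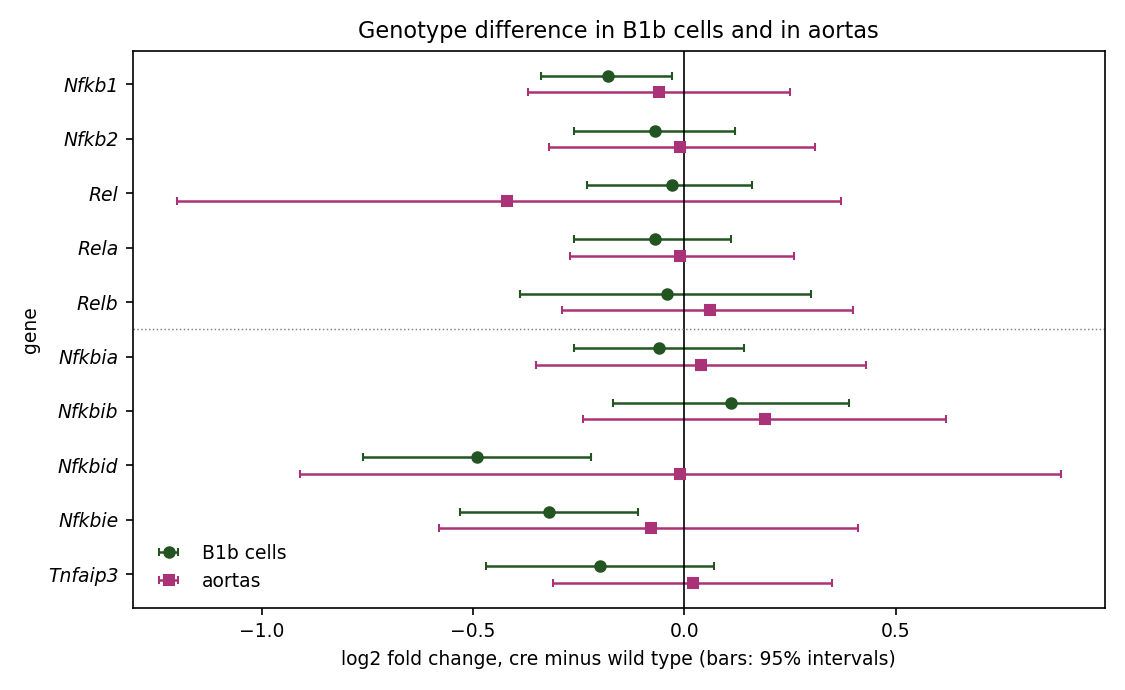
Log2 fold change of each gene, cre minus wild type, in B1b cells (circles) and in aortas (squares), with 95% intervals as bars. The B1b intervals of Nfkb1, Nfkbid and Nfkbie lie below 0, while every aortic interval includes 0.

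Whether the genotype difference itself differed between the tissues was tested with an interaction term over all 16 libraries. None of the 10 members passed, against 0.0199% of 15091 genes (3 genes), and 0 had an unadjusted p under 0.05 (11.1% of genes). The B1b difference minus the aortic difference was -0.36 for Nfkbid (95% interval -1.41 to 0.68, edgeR adjusted p = 0.828), -0.24 for Nfkbie (95% interval -0.83 to 0.36) and -0.13 for Nfkb1 (95% interval -0.56 to 0.30). It was below 0 for 9 members (54.4% of genes) and was 0.35 for Rel (95% interval -0.44 to 1.13). These intervals are wide, and neither a like response nor an unlike one in the tissues can be read from them. With each library left out in turn, the Nfkbid value ran from -0.53 to -0.01. The value of -0.01 came without cre aorta replicate 2, and limma-voom on all 16 libraries gave -0.09.

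Finally, the gene whose log2 CPM followed each member most closely across the 16 libraries, after removal of the 4 group means, was sought among 10832 genes. Nfkbia and Nfkbid were each other's nearest gene, with a Pearson r of 0.95 and a Spearman rho of 0.94 (n = 16). The value was 0.91 over the 6 B1b libraries and 0.96 over the 10 aortas, and 0.92 without cre aortas 2 and 4, which lie farthest out for Nfkbia. The nearest gene of Nfkb1 was Myo1e (r = 0.92), of Nfkb2 Dok1 (0.88), of Rel Cdca7 (0.93), of Rela Rpl37 (0.85) and of Relb Selenok (0.90). The nearest gene of Nfkbib was Sirt4 (0.91), of Nfkbie Arpc2 (0.91) and of Tnfaip3 Hivep3 (0.89). These are the highest of many correlations over few libraries that share depth and tissue content, and they are given as a description.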

How the data were processed

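RNA was sequenced from 16 samples, B1b cells (3 wild type, 3 cre) and aortas (5 and 5). Per the labels' protocols, the library kit was KAPA mRNA Hyperprep, after Direct-zol purification. The submitters' processing notes name the aligner STAR 2.5.2b, CASAVA 1.8.2 and build mm10. Which program counted the reads, and whether by strand, is not given in the sources used here. Values in the deposited table are whole-number read counts for each RefSeq transcript, which the authors did not normalize.

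Of 35745 transcripts, 35440 were named by RefSeq (GRCm38.p6) and 188 by GENCODE. Entries without a name held 0.416% to 4.169% of a library's counts and stayed in library sizes and tests. The members and lists were chosen with earlier results of these data known. The members had 16 transcripts, and 6 of those not used held 94.3% to 99.5% of the count of the one used, so isoforms cannot be told apart. The transcript of highest total count was used for each gene.

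All comparisons used edgeR 4.0.16 in R 4.3.3 (TMM, filterByExpr, robust quasi-likelihood F test). The genotype contrasts were fitted in each tissue separately, the tissue contrast on the 8 wild-type libraries, and the interaction of tissue and genotype on all 16, with Benjamini-Hochberg adjustment over all genes tested and a threshold of 0.05. The scripts were tested on simulated counts. Printed CPM used TMM over all 16 libraries, and CPM per kilobase used GENCODE transcript lengths, for Nfkb2 that of another of its transcripts. Correlations used log2 CPM with a prior count of 2. DESeq2 1.42.0, limma-voom (limma 3.58.1), other scalings, filters and transcript choices, and leaving out each library were alternatives. All 10 members were named, and from each further list every gene past the threshold and the 3 of smallest p in B1b cells. The nearest gene by correlation was named for each member. 1 gene of the B cell marker list is not reported here. A member had at least 196 counts in a B1b library and as few as 8 in an aorta, where counting error is larger.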

Additional observations from a re-analysis of the deposited data

Results flagged for a closer look

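Rela in the aortas was the 1 value that stood apart within its group, of 20 sets of 5 aortas looked at (10 genes in 2 genotypes). Cre replicate 4 was at 80.5 CPM, while the other 4 cre aortas were between 106 and 109 CPM. The rule was Dixon's 95% critical value, which by its definition sets apart about 1 in 20 groups by chance. In the same library the nerve and Schwann cell markers summed to 1105 CPM, against 81.5 to 191 CPM in the other cre aortas, and adipocyte markers to 4724 CPM, against 1335 to 3954 CPM. Heart muscle markers were low there, at 575 CPM against 3092 to 5966 CPM, and so were fibroblast markers, at 10162 CPM against 11372 to 17211 CPM. Their part in the Rela value was not tested. Without this library the log2 fold change of Rela in aortas was 0.07 in place of -0.01.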

How the results depend on the processing

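Of the 10 members, 0 passed in B1b cells under the main settings, 1 (Nfkbid) without the filter on low counts, and 0 to 1 when a library was left out. The count was 0 in every alternative in aortas and for the interaction, and 8 to 9 between tissues, where Relb passed without wild-type B1b replicate 3 (adjusted p = 0.0434). Leaving out a library changed the sign of B1b values near 0, which ran from -0.06 to 0.01 for Rel, -0.13 to 0.02 for Rela, -0.17 to 0.12 for Relb, -0.11 to 0.04 for Nfkbia and -0.02 to 0.23 for Nfkbib. In aortas they ran from -0.07 to 0.08 for Nfkb2, -0.05 to 0.07 for Rela, -0.02 to 0.14 for Relb, -0.11 to 0.13 for Nfkbia, -0.45 to 0.17 for Nfkbid, -0.23 to 0.04 for Nfkbie and -0.06 to 0.10 for Tnfaip3. For the interaction they ran from -0.15 to 0.02 for Nfkb2 and Rela, -0.21 to 0.07 for Relb, -0.19 to 0.04 for Nfkbia and -0.20 to 0.11 for Nfkbib. Other aortic values that changed sign were Nfkb2 at 0.00 with RLE size factors or summed transcripts and 0.02 with voom quality weights, Rela at 0.00 with quality weights, Nfkbid at 0.02 with DESeq2 and 0.01 with summed transcripts, Tnfaip3 at -0.00 without the filter, and, without the 2 aortas of lowest total, Nfkbia at -0.19 and Tnfaip3 at -0.01. Nfkbid was then at -0.55 (adjusted p = 0.49). The cause was not tested.

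Over all genes, the 84 calls in B1b cells became 327 without the filter, 196 with DESeq2, 11 with summed transcripts, 0 with all 16 libraries in 1 fit and 35 to 103 without a library. The 2 calls in aortas became 204 with DESeq2, 90 without the 2 aortas of lowest total, 47 with all 16 libraries, 9 with quality weights, 1 with limma-voom or the transcript of lowest count, and 0 to 14 without a library. The 3 interaction calls became 173 with DESeq2 and 1 to 7 without a library. Between tissues, the median of all genes was -0.09 with TMM and -0.19 with RLE size factors. No paired analysis was possible because the replicate numbers follow sample order and the labels pair no samples. Depth limits Rel and Nfkbid in aortas, where a member had as few as 8 counts.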
